A study of Homo sapiens with 3 samples.

Results

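The comparison described here set Huh-7 cells that survived RSL-3 together with linoleic acid (LA) against untreated cells of the same CRISPR screen. Huh-7 is an established human hepatocellular carcinoma line. All cells had been transduced with virus of the GeCKOv2 library, a genome-wide collection of single guide RNAs (sgRNAs) delivered with Cas9, selected with puromycin and expanded. The RSL-3/LA cells then received 0.03 µM RSL-3 and LA for 24 h, the survivors were grown out and the selection was repeated. The labels give the LA dose as 50 mM, a unit that could not be checked here and may be a slip for µM, and the sources differ on the number of rounds. A further library of the screen came from cells given 0.1 µM RSL-3 alone for 24 h, and its counts are quoted only beside sgRNAs of interest. Each condition is 1 library from a bulk pool of cells, so no difference could be tested and all values are descriptions of these libraries. Every sgRNA of the table was a member, 119461 in all. Genes are the targets of 111626 of them (18992 genes) and microRNAs of 6835, and 1000 match no target. The read-out is sgRNA DNA, which carries no expression values, so the identity of the cell line could not be checked against liver markers.

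RSL-3 is a covalent inhibitor of GPX4, the selenoenzyme that reduces phospholipid hydroperoxides. When GPX4 is blocked, iron-dependent oxidation of polyunsaturated acyl chains spreads through membranes and cells die by ferroptosis. LA is a polyunsaturated fatty acid that cells elongate, desaturate and build into phospholipids, which supplies oxidisable chains. In such a screen the sgRNA marks the descendants of each transduced cell, and an sgRNA that disables a gene needed for death becomes more common among survivors. A cell that survives for another reason carries its sgRNA along as well. Hits are therefore usually read from several sgRNAs of a gene moving together.

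The untreated library held 1466896 counts over 19153 sgRNAs (16% of the collection), and the RSL-3/LA library 1485991 counts over 4970 sgRNAs (4.16%). In untreated cells 3974 sgRNAs made up 50% of the counts, against 170 in RSL-3/LA survivors. The 100 most abundant sgRNAs held 2.69% of untreated and 42.5% of survivor counts. Counts were scaled to 1000000 per library (CPM), and a ratio below is survivor over untreated CPM with its exact 95% interval, which covers counting error only. PCR reads are not independent molecules, so the true uncertainty of a ratio is wider. With no read seen, an sgRNA can still make up 0.000205% of the untreated or 0.000202% of the survivor library, the share of 3 counts.

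Enrichment required both a survivor level of at least 100 CPM and a 10-fold gain. The gain was taken over the untreated CPM, or over the CPM of 3 counts where that was higher. By this rule 1428 of the 119461 sgRNAs were enriched (1.2%). Of these, 1241 (86.9%) had 0 counts in untreated cells, and they held 58.7% of the survivor library. Their starting level is unknown and their ratios are lower bounds. The account below therefore rests mainly on the 15047 sgRNAs with 10 or more untreated counts, which held 99.1% of the untreated library and 17.5% of the survivor library.

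Of these 15047 well-measured sgRNAs, 14106 (93.7%, interval 93.3 to 94.1%) had no count left in RSL-3/LA survivors, and these are called lost below. Counting those with few survivor reads, 14288 (95%) had a ratio of 0.1 or less. At the other end 315 (2.09%) had a ratio of 2 or more, called higher below, and 105 (0.698%) were enriched. The 105 enriched sgRNAs went together from 0.336% of the untreated library to 10.3% of the survivor library. Their median count was 31 in untreated cells and 669 in survivors. They belong to 105 different targets, 104 of them outside DHCR7, so no target had more than 1 of them.

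The 941 well-measured sgRNAs still present in survivors (6.25%) spanned a wide range of ratios. Their median ratio was 0.852, the middle 50% lay between 0.172 and 3.22, and the extremes were 0.00185 for an sgRNA to GAGE12D and 311 for one to MARCH4. Of the 941, 502 were below a ratio of 1, 378 were below 0.5, and 248 were between 0.5 and 2. In 114 of them only 1 to 3 survivor reads remained. Presence in survivors thus covered sgRNAs that had become rarer as well as ones that had become more common.

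Whether an sgRNA was present in survivors varied little with its abundance beforehand. It was present for 6.01% (interval 5.11 to 7.01%) of the 2513 sgRNAs at 10 to 29 untreated counts, for 6.38% (5.77 to 7.02%) of the 6069 at 30 to 99, and for 5.92% (5.31 to 6.58%) of the 5420 from 100 to below 200. Among the 1045 sgRNAs at 200 counts or more the share was 7.85% (6.29 to 9.65%). The share of enriched sgRNAs went the other way over the same classes, from 1.91% through 0.758% and 0.185% to 0.0957%, since a 10-fold ratio requires fewer survivor reads where the starting count is low. Among the 100308 sgRNAs with no untreated count, 3.76% (3.64 to 3.88%) were present in survivors. Present sgRNAs had a median of 98, 64, 61 and 89.5 survivor reads over these classes of 10 or more counts, from the lowest to the highest. Next to the threshold, 10 of 159 sgRNAs at 9 counts and 14 of 166 at 10 counts were present.

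The 5 well-measured sgRNAs with ratios of 100 or more targeted MARCH4, LONRF2, THUMPD2, MMP10 and STK11. MARCH4, now named MARCHF4, is a membrane-bound ubiquitin ligase, and its sgRNA went from 35 counts in untreated cells to 11012 in survivors, a ratio of 311 (223 to 446). LONRF2 encodes another RING-finger ubiquitin ligase, and its sgRNA went from 63 to 12365 counts (194, interval 151 to 252). The other 5 sgRNAs to each of these genes had no count in either library, so neither gene has a second sgRNA to compare.

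THUMPD2, an RNA methyltransferase, had 1 sgRNA that went from 34 to 4977 counts (145, interval 103 to 209), while another went from 157 counts to 0. MMP10 encodes stromelysin-2, a secreted matrix metalloproteinase, and its sgRNA went from 16 to 1976 counts (122, interval 74.9 to 214). STK11 encodes LKB1, the tumour suppressor kinase that activates AMPK and so restrains fatty acid synthesis. Its leading sgRNA went from 89 to 10157 counts (113, interval 91.5 to 140). The other well-measured STK11 sgRNA went from 38 counts to 0. For THUMPD2 and STK11, then, sgRNAs of the same gene ended at opposite extremes.

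The next ratios belonged to genes with varied functions and, in several cases, expression known mainly from other tissues. ADAM28, a membrane metalloproteinase, had an sgRNA at 38 untreated and 3770 survivor counts (97.9, interval 71.2 to 139), and another at 0 and 1231. OR4Q3, an olfactory receptor, went from 19 to 1860 counts (96.6). STATH, a salivary calcium-binding peptide, went from 15 to 1406 (92.5). Below these came SPEM1, needed for sperm maturation, at 11 and 801 counts (71.9), although another SPEM1 sgRNA went from 170 counts to 0. NSG1, a neuronal endosomal protein, stood at 14 and 959 (67.6). AREG, the EGF receptor ligand amphiregulin, stood at 39 and 2534 (64.1, interval 46.8 to 90.4), with a second sgRNA at 0 and 290. TPH1, which makes serotonin from tryptophan, stood at 11 and 712 (63.9). The wide intervals of the sgRNAs that began near 10 counts, such as 35.5 to 129 for TPH1, show how little such ratios can be ordered.

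Among enriched well-measured sgRNAs to protein-coding genes other than DHCR7, the next highest survivor counts after those already named were for DUSP18, GPX6, THYN1, PCDH11X, LRRN3, SNX30 and SENP7. The sgRNA to DUSP18, a dual-specificity phosphatase, went from 101 to 2922 counts (28.6, interval 23.4 to 35.2), but another went from 22 to 0. GPX6, a glutathione peroxidase paralogous to GPX4, went from 118 to 2702 (22.6, interval 18.8 to 27.4), and a second GPX6 sgRNA stood at 0 and 241. The sgRNA to SENP7, a SUMO protease, went from 111 to 2001 (17.8), while its other measured sgRNAs went from 100 and 62 counts to 0. SNX30, an endosomal sorting nexin, had 1 sgRNA at 173 and 2150 (12.3) and 1 at 135 and 0. LRRN3 behaved likewise, with 98 and 2161 counts (21.8) for 1 sgRNA and 92 and 0 for another. Ratios of 30 to 100 were held by 27 sgRNAs in all and enriched ratios of 10 to 30 by 73. At the edge of the rule, SCFD2 was inside at 49 and 498 counts (ratio 10.0) and AQP7 outside at 115 and 1164 (9.99).

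The enriched sgRNAs were seldom accompanied by others of the same target. Of the 101 targets other than non-targeting controls with an enriched well-measured sgRNA, 49 had further well-measured sgRNAs, 70 in number. Of these 70, 69 (98.6%) were lost and 0 were higher, although their median untreated count was 84. This is read beside 93.7% lost among all well-measured sgRNAs. The exception that was present was the second sgRNA to BEX2, at 46 and 62 counts (1.33) beside the enriched one at 17 and 779 (45.2).

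The same holds across the collection. Of 3271 targets with at least 2 well-measured sgRNAs, 2864 had none present in survivors, 396 had 1 and 11 had 2. Where another well-measured sgRNA of the target was present, 22 of 526 sgRNAs (4.18%) were present, and where none was, 396 of 6623 (5.98%) were. The 11 targets were AIFM1, BEX2, CASQ2, CDC42EP3, FAM72A, JDP2, KLF6, MCUR1, PCDHA2, PI4KA and ZNF816. In 1 of them, JDP2, both sgRNAs were higher, and no target had 2 that were enriched. Scaled on the non-targeting sgRNAs or by the median ratio, the lower of the JDP2 ratios was below 2, at 1.26 and 1.59.

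JDP2 encodes a repressor of AP-1 transcription factors, and its sgRNAs went from 90 to 386 counts (4.23, interval 3.36 to 5.39) and from 120 to 267 (2.20, interval 1.76 to 2.75). These moved in the same direction by amounts whose intervals do not overlap. AIFM1, a mitochondrial flavoprotein that acts in caspase-independent death and in respiratory chain assembly, was split: 80 to 335 counts (4.13), 60 to 31 (0.510) and 183 to 0. KLF6, a zinc-finger transcription factor, was split as well, at 101 to 329 (3.22), 50 to 1 and 87 to 0. PI4KA makes phosphatidylinositol 4-phosphate at the plasma membrane. Its 2 well-measured sgRNAs were below a ratio of 1, at 62 to 11 (0.175) and 92 to 23 (0.247). Another PI4KA sgRNA, with no untreated count, was present as well. The 6 PI4KA sgRNAs together went from 154 to 168 counts (1.08, interval 0.860 to 1.35).

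Including sgRNAs with few or no untreated counts, 48 targets had 2 or more enriched sgRNAs, and 2 of these, DHCR7 and SYN1, had 3. In 34 of the 48 every enriched sgRNA stood at 0 untreated counts. In 12 targets 1 of them was well measured: ADAM28, AREG, DHCR7, GPX6, HSPA12A, MBLAC2, MSX2, PRM3, RB1, SLC25A5, TAF1L and TMEM72. Targets of enriched well-measured sgRNAs had 402 further sgRNAs below 10 untreated counts, of which 13 (3.23%) were enriched. Over all sgRNAs below 10 untreated counts, leaving out the non-targeting ones, 1298 of 103639 (1.25%) were enriched. DHCR7 accounts for 2 of the 13.

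These 12 genes have varied functions. RB1, the retinoblastoma cell cycle repressor, had sgRNAs at 24 and 318 counts (13.1, interval 8.63 to 20.7) and at 0 and 615. PRM3, a protamine of sperm, had 21 and 469 (22.0) and 0 and 1514, the latter at least 498-fold above the 3-count floor. SLC25A5, a mitochondrial ADP/ATP carrier, had 44 and 580 (13.0) and 0 and 232. MSX2, a homeobox factor, had 21 and 378 (17.8) and 0 and 811, but its other well-measured sgRNA went from 100 to 0. HSPA12A, a distant relative of the HSP70 chaperones, likewise had 20 and 512 (25.3), 0 and 657, and 130 and 0. TAF1L is a retrogene copy of TAF1, so its sgRNAs may also match TAF1. It had 12 and 241 counts (19.8) and 0 and 447, and the latter stood at 1828 counts in the library given RSL-3 alone. DHCR7, which makes cholesterol from 7-dehydrocholesterol, also belongs to these 12, and its well-measured sgRNA went from 38 to 3482 counts (90.5). Another DHCR7 sgRNA went from 8 to 76533 counts, the highest count of the survivor library, and a further one from 0 to 8206. DHCR7 held 5.94% of the survivor counts, the largest share of any gene. Next came FRG1 (3.61%), HYOU1 (2.60%), LAGE3 (1.83%) and PRR5 (0.891%), through sgRNAs with 0 or 1 untreated counts.

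Enzymes that handle LA itself were looked at next. Of 31 genes of fatty acid uptake, activation and elongation, 18 had well-measured sgRNAs, 26 in number. Over all well-measured sgRNAs 93.7% were lost, 2.09% were higher and 0.698% were enriched. Of the 26, 24 were lost (92.3%), 1 was higher and enriched, and 1 was present at a lower level. The enriched one targets FADS2, the delta-6 desaturase that takes the first step from LA towards arachidonic acid, and it went from 56 to 1884 counts (33.2, interval 25.5 to 44.1). A second FADS2 sgRNA went from 210 counts to 0 (at most 0.0175), and one more stood at 0 and 144. FADS1, the delta-5 desaturase further along the route, had sgRNAs at 0 and 212 and at 0 and 106 counts. CD36, a fatty acid translocase of the plasma membrane, had 1 at 0 and 772. All 4 well-measured sgRNAs to ACSL5, an acyl-CoA synthetase, ended at 10 counts or fewer, with 27 to 10 (0.366) for the one still present and 25, 129 and 300 to 0 for the others.

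The list of phospholipid acyl chain remodelling, the step that puts such chains into membranes, held 20 well-measured sgRNAs. Of these, 18 were lost (90%), 1 was higher (5%) and 0 were enriched, beside 93.7%, 2.09% and 0.698% over all well-measured sgRNAs. The higher one targets LPCAT3, the acyltransferase that places polyunsaturated chains into phosphatidylcholine and phosphatidylethanolamine, at 147 and 937 counts (6.29, interval 5.28 to 7.54). Both other LPCAT3 sgRNAs with reads began at 0, at 673 and 612 survivor counts, or at least 221-fold and 201-fold above the floor. PLA2G4A, the phospholipase that releases arachidonic acid, stood at 0 and 542 counts, and MBOAT7, which acylates phosphatidylinositol, at 0 and 226. Of 19 well-measured sgRNAs to lipid droplet and triglyceride genes, 18 were lost (94.7%) and 1 was enriched (5.26%), beside the same 93.7% and 0.698%. It targets PLIN4, a droplet coat protein, at 18 and 437 (24.0, interval 14.99 to 40.8), and another PLIN4 sgRNA went from 27 to 0. All 12 well-measured sgRNAs to enzymes of fatty acid beta-oxidation were lost, and none of that list's 150 sgRNAs was enriched. Both counts lie near the shares over all sgRNAs, 93.7% lost among the well measured and 1.2% enriched among all.

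Among genes known to promote ferroptosis, 21 sgRNAs were well measured, of which 17 were lost (81%), 1 (LPCAT3) was higher and 0 were enriched. Of all well-measured sgRNAs 93.7% were lost, 2.09% were higher and 0.698% were enriched. Counting those with few survivor reads, 19 of the 21 had a ratio of 0.1 or less, beside 95% of all well-measured sgRNAs. POR, the reductase that feeds electrons to cytochromes P450, had 1 sgRNA at 89 and 91 counts (1.01, interval 0.745 to 1.37; 0.580 on non-targeting and 0.729 on median-ratio scaling), and 1 that went from 143 to 0. ALOX5, a lipoxygenase, went from 119 to 1 (0.00830) and from 29 to 0. PGRMC1, a haem-binding membrane protein, went from 76 to 2, from 146 to 0 and from 16 to 0. The first PGRMC1 sgRNA stood at 5163 counts in the library given RSL-3 alone. All 3 well-measured sgRNAs to KEAP1, the adaptor that degrades NRF2, were lost, from 209, 145 and 216 counts.

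Of 17 sgRNAs to suppressors of ferroptosis, 16 were lost and 0 were higher. The 1 present targets GCLC, the catalytic subunit of glutathione synthesis, at 44 and 78 counts (1.75, interval 1.19 to 2.59). The lost ones include both to SLC7A11, the cystine importer (64 and 106 untreated counts), and all 3 to its partner SLC3A2. FTL, the ferritin light chain, and HSPB1, a small heat shock protein, each had 1 enriched sgRNA that began at 0, at 699 and 287 survivor counts, and 1 well-measured sgRNA that was lost. Among 17 sgRNAs to iron handling genes, 16 were lost and 0 were higher, and that to transferrin (TF) went from 150 to 26 counts (0.171). All 10 to the selenoprotein synthesis machinery, on which GPX4 depends, were lost, as were all 7 to ubiquinone synthesis, whose product is a lipid-soluble radical trap. With 93.7% of all well-measured sgRNAs lost and 2.09% higher, these counts of lost and higher sgRNAs lie near the background. Among all 78 sgRNAs of the ubiquinone list 4 (5.13%) were enriched, beside 1.2% of all sgRNAs. They began at 0 or 1 counts and target ADCK3 (442 survivor counts), COQ6 (468), COQ7 (226) and COQ3 (178).

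Of 15 well-measured sgRNAs of the cholesterol pathway, including that to DHCR7, 12 were lost (80.0%), beside 93.7% over all well-measured sgRNAs. Counting those with few survivor reads, 14 of the 15 had a ratio of 0.1 or less, beside 95% of all well-measured sgRNAs. The 12 lost ones include those to HMGCS1, FDPS, both to LSS, and those to EBP, SC5D and NSDHL. ACAT2, which starts the mevalonate route, went from 131 to 13 counts (0.0980), and FDFT1, squalene synthase, from 78 to 2 (0.0253). SC5D makes 7-dehydrocholesterol, the substrate of DHCR7, and its sgRNA went from 64 counts to 0.

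Of 17 well-measured sgRNAs to apoptosis genes, 14 were lost, 3 were higher and 0 were enriched, beside 93.7%, 2.09% and 0.698% over all well-measured sgRNAs. The higher ones target BBC3, the p53-induced BH3 protein PUMA, at 91 and 364 counts (3.95, interval 3.13 to 5.02), CASP10, an initiator caspase, at 85 and 232 (2.69, interval 2.09 to 3.50), and BAX, which permeabilises mitochondria, at 18 and 42 (2.30, interval 1.30 to 4.25). Scaled on the non-targeting sgRNAs, CASP10 and BAX were below a ratio of 2, at 1.55 and 1.32. Another CASP10 sgRNA went from 37 to 0. In 6 more genes of this list an enriched sgRNA began at 0, which is 3.23% of the list's 186 sgRNAs, beside 1.2% of all sgRNAs. These 6 genes act in both directions. BCL2 and BCL2L1, which block apoptosis, reached 2109 and 382 counts, and CASP8, APAF1, TRADD and CASP2, which drive or relay it, reached 463, 421, 234 and 167.

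Tumour suppressors had 17 well-measured sgRNAs, with 15 lost (88.2%) and 2 enriched (11.8%), those to STK11 and RB1 given above. Across all well-measured sgRNAs 93.7% were lost and 0.698% were enriched. CDKN1A, the p21 cell cycle inhibitor, had sgRNAs at 0 and 243 and at 0 and 60 counts. The lost ones include single sgRNAs to TSC1 and TSC2, which act below STK11 to restrain mTORC1, and both to CDKN2B. For genes that most cells need, the share lost lay near the 93.7% of all well-measured sgRNAs, at 31 of 33 (93.9%) for cytosolic ribosomal proteins and 23 of 25 (92.0%) for proteasome subunits. PSMD2, a subunit of the regulatory particle, had 1 enriched sgRNA at 153 and 1893 counts (12.2, interval 10.4 to 14.5), while its other sgRNAs went from 111, 77 and 213 counts to 0. RPL41 stood at 34 and 91 (2.64). All 8 well-measured sgRNAs to endoplasmic reticulum chaperones and both to the KEOPS complex were lost, and the large survivor counts in those lists, 38678 for HYOU1, 25634 for LAGE3 and 1851 for PDIA6, came from sgRNAs with 0 or 1 untreated counts.

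Over the 16 lists together the median log2 ratio per list lay between −6.70 and −5.32, with a pseudocount of 1 CPM, beside −5.81 over all well-measured sgRNAs. Since most sgRNAs of each list ended at 0, this median follows their untreated counts and says little about the genes. The share lost ran from 80.0% for cholesterol synthesis (12 of 15) to 100% for lists of 2 to 12 sgRNAs. For cholesterol synthesis 14 of the 15 had a ratio of 0.1 or less.

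Non-targeting sgRNAs, which cut no gene and serve as the internal control, set the level of change without a target. Over all well-measured sgRNAs 6.25% were present in survivors, 2.09% were higher and 0.698% were enriched. Of the 225 non-targeting ones, 26 were present (11.6%, interval 7.69 to 16.5%), 9 were higher (4%) and 4 were enriched (1.78%). The largest went from 306 to 12984 counts (41.9, interval 37.4 to 47.1) and was the most abundant well-measured sgRNA of the survivor library. The others went from 81 to 1951 (23.8), from 18 to 249 (13.7) and from 86 to 946 (10.9). Over all 1000 non-targeting sgRNAs 82 (8.20%, interval 6.57 to 10.1%) were present and 29 (2.90%) were enriched, beside 4.16% and 1.2% of all sgRNAs. An untreated count was found for 29% of the non-targeting sgRNAs and for 16% of all. The non-targeting sgRNAs took 1.45% of the untreated and 2.53% of the survivor counts. Of all well-measured sgRNAs with a target, 22 had a ratio above that of the largest non-targeting one. There were 15047 well-measured sgRNAs in all, and only 225 of them were non-targeting. The 22 began at 10 to 174 untreated counts, below the 306 of that control, where a high ratio requires fewer survivor reads.

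Olfactory receptors, known mainly from sensory neurons of the nose, gave another reference. Of 307 well-measured sgRNAs to them, 24 were present (7.82%, interval 5.07 to 11.4%), 10 were higher (3.26%) and 3 were enriched (0.977%), to OR4Q3, OR2G3 and OR5T1. Among all well-measured sgRNAs these shares were 6.25%, 2.09% and 0.698%. OR4A15 stood at 144 and 948 counts (6.50) and OR5H14 at 104 and 407 (3.86). The collection comes as sub-libraries A and B. Of 8539 well-measured sgRNAs of A 6.73% (6.21 to 7.29%) and of 6508 of B 5.62% (5.08 to 6.21%) were present, with 69 (0.808%) and 36 (0.553%) enriched.

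MicroRNA hairpins had 850 well-measured sgRNAs, of which 52 were present (6.12%, interval 4.60 to 7.95%), 20 were higher (2.35%) and 8 were enriched (0.941%). For all well-measured sgRNAs the shares were 6.25%, 2.09% and 0.698%. MicroRNAs are short RNAs that repress messages through their seed, bases 2 to 8. The mature sequences of the enriched hairpins are printed because each hairpin here is represented by 1 sgRNA, and the seed is what would link hairpins to each other. The RefSeq table for GRCh38.p14 held 6 of the 8 hairpins, and the sgRNAs to hsa-mir-4469 (13 and 501 counts, ratio 38.0) and hsa-mir-181b-1 (40 and 457, ratio 11.3) are named only. Capitals mark the seed.
hsa-miR-6892-3p: uCCCUCUCccaccccuugcag
hsa-miR-3142: aAGGCCUUucugaaccuucaga
hsa-miR-642a-5p: gUCCCUCUccaaaugugucuug
hsa-miR-642a-3p: aGACACAUuuggagagggaacc
hsa-miR-4656: uGGGCUGAgggcaggaggccugu
hsa-miR-3160-3p: aGAGCUGAgacuagaaagccca
hsa-miR-3160-5p: gGCUUUCUagucucagcucucc
hsa-miR-7846-3p: cAGCGGAGccuggagagaagg

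No 2 of these 8 sequences share a seed. The seed of hsa-miR-642a-5p, UCCCUCU, also occurs in hsa-miR-6892-3p, but from its first base and so not at the seed position. The sgRNA to hsa-mir-6892 went from 174 to 8341 counts (47.3, interval 40.7 to 55.3), and its mature 3′ arm lies at chr7:143382780-143382800 on the plus strand. That to hsa-mir-3142, at chr5:160474492-160474513, plus strand, went from 10 to 666 (65.7, interval 35.5 to 138). The hsa-mir-642a sgRNA went from 17 to 517 (30.02), and another sgRNA of that hairpin went from 7 to 0. Its arms lie at chr19:45674943-45674964 and chr19:45674978-45674999, plus strand. The sgRNAs to hsa-mir-4656, hsa-mir-3160-1 and hsa-mir-7846 went from 68 to 1351 (19.6), from 18 to 274 (15.03) and from 29 to 433 (14.7). In none of these 6 hairpins was a second sgRNA well measured. The most abundant microRNA sgRNA before treatment, to hsa-mir-1538, went from 559 to 336 counts (0.593), and another to the same hairpin went from 205 to 0.

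High abundance in untreated cells did not by itself keep an sgRNA in the survivors. Of those at 200 counts or more, 7.85% were present, beside 6.25% of all well-measured ones. The most abundant untreated sgRNA, to USP17L20, went from 712 counts to 0. It belongs to a deubiquitinase family of 29 annotated genes with closely similar sequences, so its sgRNA may cut several of them. The sgRNAs to PPIP5K2, an inositol pyrophosphate kinase, CHCHD6, a component of the mitochondrial cristae organising system, and TICRR, a regulator of replication origins, went from 693, 645 and 644 counts to 0. The sgRNA to hsa-mir-1538 given above, also abundant before treatment, was still present, at a ratio of 0.593.

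The library given RSL-3 alone at the higher dose shares its untreated library with this comparison, so only values are given side by side. That library had counts for only 2938 sgRNAs (2.46% of the collection), and 4 sgRNAs made up 50% of its counts. Of the 105 enriched well-measured sgRNAs, 75 had 0 counts and 102 had 10 or fewer there. Low counts in that library were the rule for the whole collection and are not particular to these sgRNAs. The exceptions were DHCR7, at 216198 counts, TBC1D3G, at 175, and G6PC, at 81. MARCH4, LONRF2 and STK11, with 11012, 12365 and 10157 counts in RSL-3/LA survivors, stood at 7, 5 and 2 there, and FADS2 at 1. The RSL-3 dose and the addition of LA differ together between these survivor libraries and their parts cannot be told apart.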

How the data were processed

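The authors amplified sgRNA cassettes from genomic DNA, sequenced them and counted reads per sgRNA with MAGeCK, which the submitters' processing notes name; the genome build was not given in the sources used here. The deposited values are raw counts per sgRNA without normalization. The deposited per-target tables of the authors' own comparison (scores, p-values, false discovery rates, ranks) were not used. Sequences of the sgRNAs were not used here.

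Counts were scaled to CPM over the column totals. Ratios carry exact binomial (Clopper-Pearson) 95% intervals, and folds from 0 untreated counts are lower bounds against 3 counts. With 1 library per condition no test was run. Members, gene lists and rules were chosen with earlier results of these data known. Named by rule are DHCR7; among enriched sgRNAs with 10 or more untreated counts, the 15 most abundant and the 15 of highest ratio; targets with several enriched sgRNAs of which 1 had such a count; targets with 3 enriched; the 5 largest targets; up to 5 members per list with an enriched or higher sgRNA; and the 5 most abundant untreated sgRNAs. Targets with 2 sgRNAs present, sgRNAs at the edge of a rule, enriched microRNA, non-targeting and olfactory receptor sgRNAs outside it, and list members given as lost or little changed were chosen with their values in view. Gene symbols follow the collection, of which 17419 of 18992 stand unchanged in RefSeq's table for GRCh38.p14. Scripts (Python 3.11.15, numpy 2.4.6, pandas 2.3.3, scipy 1.17.1) were tested on simulated data. Alternatives covered scaling, thresholds, the count filter and the pseudocount.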

Additional observations from a re-analysis of the deposited data

Results flagged for a closer look

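Among 48 sgRNAs named here with 100 or more untreated counts, 15 went in opposite directions in the RSL-3/LA and RSL-3 libraries, 14 of them up in RSL-3/LA. Up in RSL-3/LA meant a ratio of 2 or more there and 0.1 or less with RSL-3 alone. The other way meant 0.1 or less in RSL-3/LA and 1 or more with RSL-3 alone. Only 2.46% of all sgRNAs had a count in the library given RSL-3 alone, so a low ratio there was the rule for most sgRNAs. Both libraries are set against the same untreated library, each is 1 library, and the difference between them was not tested. The ratios in RSL-3/LA survivors were 47.3 for hsa-mir-6892, 41.9 for the non-targeting sgRNA 0586, 28.6 for DUSP18, 22.6 for GPX6, 17.8 for SENP7, 12.3 for SNX30, 12.2 for PSMD2, 9.99 for AQP7, 6.50 for OR4A15, 6.29 for LPCAT3, 3.86 for OR5H14, 3.22 for KLF6, 2.20 for JDP2 and 2.19 for PCDHA2. In the library given RSL-3 alone these sgRNAs had 5 counts or fewer, with the non-targeting one at 5 and hsa-mir-6892 at 4. USP17L20 went the other way, with a ratio of 0 in RSL-3/LA (712 counts to 0) and 1.55 with RSL-3 alone (1103 counts). Most named sgRNAs were named for being high in RSL-3/LA survivors, which sets the direction of most of these.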

How the results depend on the processing

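No paired analysis was possible because only 1 library was made per condition, and no replicate could be left out. Each other scaling multiplied every ratio by 1 constant, which was 0.574, 0.722 or 1.22. By that alone, no ratio of 2 or more could fall below 1 and none of 0.5 or less could rise above 1. Of ratios between 0.5 and 2, BEX2 (1.33 to 0.764 on non-targeting and 0.961 on median-ratio scaling), MCUR1 (1.66 to 0.953 on non-targeting scaling), POR (1.01 to 0.580 and 0.729) and PCDHA2 (0.887 to 1.08 without the 10 most abundant survivor sgRNAs) crossed 1. Of the recomputed counts, 23 of 37 stayed within 1.5 times of the reported one. Scaling on the non-targeting sgRNAs multiplied every ratio by 0.574 (a log2 shift of −0.80); the largest of these sgRNAs held 34.6% of their survivor counts. That scaling left 944 enriched sgRNAs, 57 of them well measured, and 22 targets with 2 or more enriched. Scaling by the median ratio of sgRNAs with 10 or more counts in both libraries (shift −0.47) left 30 such targets, and leaving the 10 most abundant survivor sgRNAs out of the total shifted the log2 ratios by 0.29. A 30-fold threshold left 32 enriched well-measured sgRNAs. A survivor minimum of 30 CPM gave 2400 enriched sgRNAs and 115 such targets, and one of 1000 CPM gave 147 enriched sgRNAs, 27 of them well measured, and 3 such targets. Requiring 30 untreated counts left 57 enriched sgRNAs, and requiring 100 left 11 enriched, 75 higher and 6062 lost (93.8%). With a pseudocount of 5 CPM the list medians lay between −4.44 and −3.13. Ratios from 10 to 30 untreated counts, and all sgRNAs that began at 0, are limited by the depth of the untreated library.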

Other observations

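Several further sgRNAs target genes of metabolic enzymes or of a membrane channel, and these genes were picked after their values were seen. G6PC, the phosphatase that releases glucose from hepatocytes, had 1 sgRNA at 143 untreated and 1572 survivor counts (10.9, interval 9.14 to 13.0) and another at 35 and 0. ALDH3A1, an aldehyde dehydrogenase that clears products of lipid peroxidation, stood at 74 and 1721 (23.0, interval 18.2 to 29.4), with no second sgRNA counted. UGT2A1, a glucuronosyltransferase, stood at 30 and 326 (10.7). AQP7, a channel for water and glycerol, had 1 sgRNA at 115 and 1164 (9.99) and another at 220 and 0.

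Some genes of phospholipid and sphingolipid synthesis outside the lists, also picked after the fact, had a higher sgRNA. PTDSS2, a phosphatidylserine synthase, stood at 121 and 1044 counts (8.52, interval 7.05 to 10.4). CEPT1, which joins choline or ethanolamine head groups to diacylglycerol, had 1 at 32 and 112 (3.46) and another at 56 and 0. SGPP2, a sphingosine-1-phosphate phosphatase, had 1 at 122 and 1881 (15.2, interval 12.7 to 18.4) and another at 89 and 0. In each of these genes with a second well-measured sgRNA, that sgRNA was lost.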
